A study of Oryza sativa with 8 samples.

Results

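Rubisco, the enzyme that fixes carbon dioxide in the chloroplast, is built from a large subunit encoded in the chloroplast genome and small subunits encoded by nuclear RBCS genes. Rubisco activase (RCA) uses ATP to free inhibited Rubisco sites. Later in the Calvin cycle the A and B subunits of glyceraldehyde-3-phosphate dehydrogenase (GAPA and GAPB) reduce the fixed carbon, and CP12 is a small redox-controlled protein that ties this enzyme to phosphoribulokinase in the dark. The genes described here were taken by symbol, as OsRBCS2, OsRBCS3, OsRBCS4, OsRBCS5, OsRCA and OsGAPA, or by the identifier Os01g0303000, annotated as similar to CP12. They came to 8 of 46120 genes. GAPA (Os04g0459500, chromosome 4) carried its symbol only as the symbol of its Arabidopsis homologue. The same column also gave RCA to Os11g0707100, a hypothetical gene next to OsRCA that was listed at 0 in 7 samples and at 0.0278 RPM (reads per 1000000 gene reads) in 1, so that 7 members remained for testing.

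The rice cultivar was Tsukinohikari, grown in hydroponic culture, and all plants had sufficient iron. From both roots and leaves 1 sample was taken of the non-transformant (NT) and 1 of each of 3 lines that overexpress OsbZIP83, a bZIP transcription factor gene. Line 13 is b83OX-13, line 15 is b83OX-15 and line 19 is b83OX-19. The sources used here do not give the promoter of the transgene, the plants' age or how many plants made up a sample, and p-values therefore cover the spread among the samples alone, which may be technical. The comparison asks which transcripts differ between the lines and NT when iron is sufficient. Leaves of NT held 1.62 RPM of OsbZIP83, against 75.3, 100.5 and 94.98 RPM for lines 13, 15 and 19, and roots of NT 32.0 RPM against 153.9, 186.1 and 187.6 RPM. Libraries held about 17000000 to 35700000 gene reads. Of 19 genes picked as light-harvesting markers of green tissue by words of their description, 15 were listed at 0 in all roots. Of these 15, 4 were at 0 in all leaves too, among them GHD7, a heading-date regulator that the words also caught. In turn, of 8 root markers 6 were listed at 0 in all leaves, among them RCc3, LSI2, NAS1, NAS2 and TOM1.

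In leaves the 7 members together made up 8.68% of gene reads in NT and 8.47%, 8.37% and 7.24% in lines 13, 15 and 19. Counts of reads were not divided by transcript length; the libraries were made from 3′ ends, and the order of members given here is an order of RPM. OsRBCS3 led with a mean of 27106 ± 413 RPM (SD, n = 4 leaf samples), followed by OsRBCS2 at 24767 ± 3412 RPM, whose range overlapped that of OsRBCS3. Next came the CP12-like gene at 12569 ± 624 RPM, OsRBCS5 at 8617 ± 1958 RPM and OsRBCS4 at 4072 ± 610 RPM. GAPA at 3208 ± 298 RPM and OsRCA at 1542 ± 454 RPM were lowest. Apart from the OsRBCS3 and OsRBCS2 pair, no range over the 4 leaf samples overlapped that of the next member in this order. Variation among leaf samples differed between members, with a coefficient of variation of 1.52% for OsRBCS3 and 29.5% for OsRCA.

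**Figure D1:**
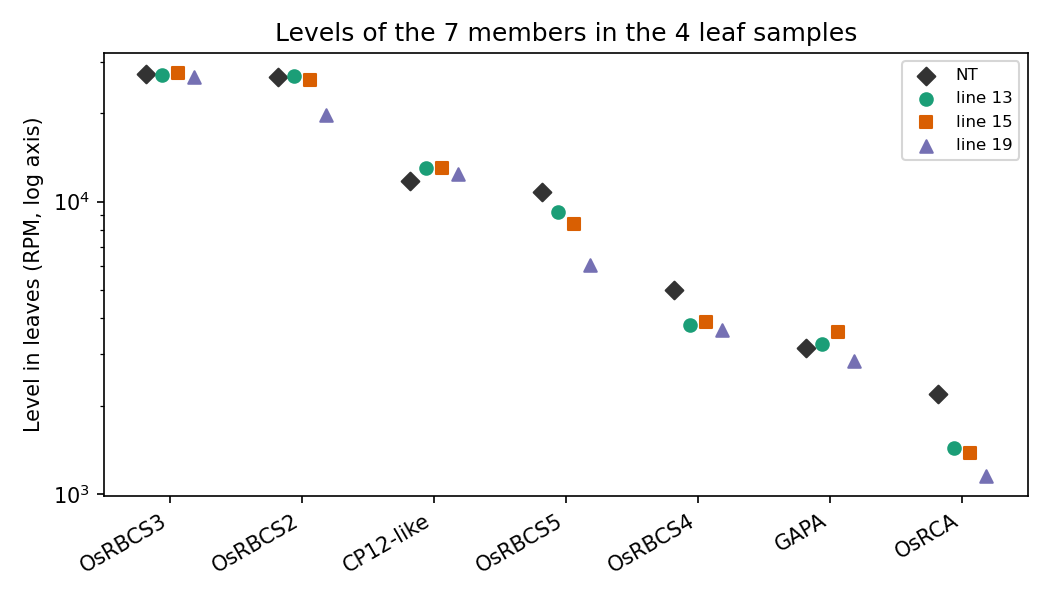
Level of each member in RPM (log axis) in the leaf samples of NT and lines 13, 15 and 19, 1 point per sample, ordered by the mean over the 4 samples. OsRCA, OsRBCS4 and OsRBCS5 lie lower in all 3 lines than in NT, while the OsRBCS3 points nearly coincide at 26559 to 27466 RPM.

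OsRCA was the 1 member that passed the threshold in leaves in the fit over both tissues, and it was lower in the lines. NT leaves held 2198 RPM of it, against 1434, 1382 and 1153 RPM for lines 13, 15 and 19. All 3 lines lay below NT, at 65.2%, 62.9% and 52.4% of its level, and line 19 was lowest. The lines' mean was 1323 ± 150 RPM (SD, n = 3). On the log2 scale they differed from NT by -0.74 ± 0.14 (SE), with a 95% interval of -1.06 to -0.42 and an adjusted p of 0.0341 (limma on log2(RPM + 1), Benjamini-Hochberg adjustment over 21991 genes). Between 28824 and 51205 reads stood behind each value, so counting error was small against these differences. In leaves 3.79% of all tested genes passed this threshold, 2.66% higher and 1.13% lower in the lines, and of the members 1 of 7 did. The call was close to the threshold. Without line 13, 15 or 19 the adjusted p was 0.0606, 0.126 and 0.0868, and in fits on the leaf samples alone it was 0.305, or 0.166 after a filter on leaf levels. OsRCA was listed at 0 in all roots, and with those 4 identical values the standard error was 0.14 in the fit over both tissues, against 0.20 and 0.18 in leaves alone by the same 2 filters. In RNA from whole leaves, fewer cells of a type and less RNA per cell cannot be told apart.

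OsRBCS4, a small-subunit gene, reached 4974 RPM in NT leaves, while lines 13, 15 and 19 had 3798, 3873 and 3642 RPM. The 3 lines lay close together and below NT. With a log2 fold change of -0.40 ± 0.09 (95% interval -0.62 to -0.18) it did not pass the threshold (limma adjusted p = 0.0658). It passed in 2 of 17 alternative fits, with adjusted p of 0.0488 after trimmed-mean (TMM) rescaling and 0.0471 without a filter on low genes. In leaves alone the adjusted p was 0.494, or 0.294 after a filter on leaf levels. The standard error there was 0.23 or 0.15, as OsRBCS4 too was listed at 0 in all roots.

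OsRBCS5, the neighbour of OsRBCS3 on chromosome 12, reached 10772 RPM in NT leaves, while the same lines had 9239, 8371 and 6084 RPM. All 3 were again below NT, but they spread over a wide range, with line 19 at 56.5% of NT and line 13 at 85.8%. The log2 fold change of -0.47 ± 0.21 did not pass (95% interval -0.96 to 0.02, limma adjusted p = 0.254).

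The 2 most abundant small-subunit genes had values in the lines on both sides of NT. For OsRBCS2 the NT value was 26563 RPM and the values of lines 13, 15 and 19 were 26878, 25944 and 19683 RPM, so that line 19 alone stood far below the others. Its log2 fold change was -0.15 (95% interval -0.56 to 0.26, limma adjusted p = 0.698). For OsRBCS3 the NT value was 27382 RPM and those of the lines were 27017, 27466 and 26559 RPM. Its log2 fold change was -0.02 (limma adjusted p = 0.959). The interval, -0.24 to 0.20, was the narrowest of the 7 members in the fit over both tissues only. In leaves alone it was -2.47 to 2.43, or -0.51 to 0.47 after a filter on leaf levels. The latter was wider than that of OsRBCS4 in the same fit (-0.78 to -0.02).

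**Figure D2:**
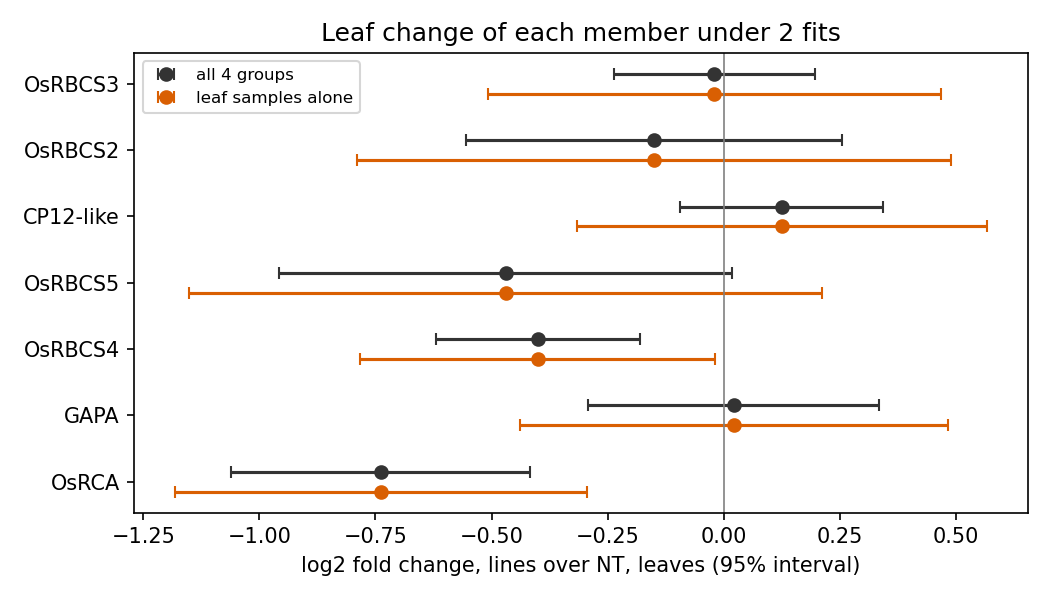
Leaf log2 fold change of each member, lines over NT, on the log2(RPM + 1) scale with its 95% interval, from the fit over all 4 groups and from the fit on the leaf samples alone with a filter on leaf levels. The interval of OsRCA lies below 0 in both fits, and the leaf-only intervals are wider for every member.

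NT was above all 3 lines for 3 of the 7 members, OsRCA, OsRBCS4 and OsRBCS5. Over 18739 genes of at least 1 RPM in leaves this held for 20.7%, and over the 102 genes of at least 1000 RPM in leaves for 50%. Line 19 was the lowest leaf sample for 6 of the 7 members, all but the CP12-like gene, against 14.2% of the 18739 genes and 57.8% of the 102 abundant ones. Line 15 was lowest for none of the members. The share of the members was thus near that of the 102 abundant genes, which include the 7 members, in the first count (3 of 7 against 50%). In the second count it was 6 of 7 against 57.8%, so line 19 was lowest for most genes of either set. The median log2 fold change of the 7 members was -0.15, and that of all tested genes 0.09. Quantile normalization lowered the median of all genes by 0.10 on the log2 scale (a shift of -0.10).

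The summed level of the 4 small-subunit genes, which does not depend on how reads are split among these similar copies, came to 69691 RPM for NT leaves, with 66932, 65654 and 55968 RPM for lines 13, 15 and 19. That was 6.97% of all gene reads in NT and 6.69%, 6.57% and 5.60% in the lines. Lines 13 and 15 were near NT and line 19 was lower. Fitted as 1 gene, the sum had a log2 fold change of -0.15 ± 0.13 (95% interval -0.45 to 0.14, limma adjusted p = 0.562).

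The make-up of the sum differed between samples. OsRBCS3 took 39.3% of it in NT and 40.4%, 41.8% and 47.5% in lines 13, 15 and 19. OsRBCS5 took 15.5% in NT and 13.8%, 12.8% and 10.9%, and OsRBCS4 7.14% in NT and 5.67%, 5.90% and 6.51%. Both minor genes thus had a smaller share in every line than in NT, and OsRBCS3 a larger one. OsRBCS2, with 38.1% in NT and 40.2%, 39.5% and 35.2% in the lines, lay on both sides of NT. These shares were not tested.

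**Figure D3:**
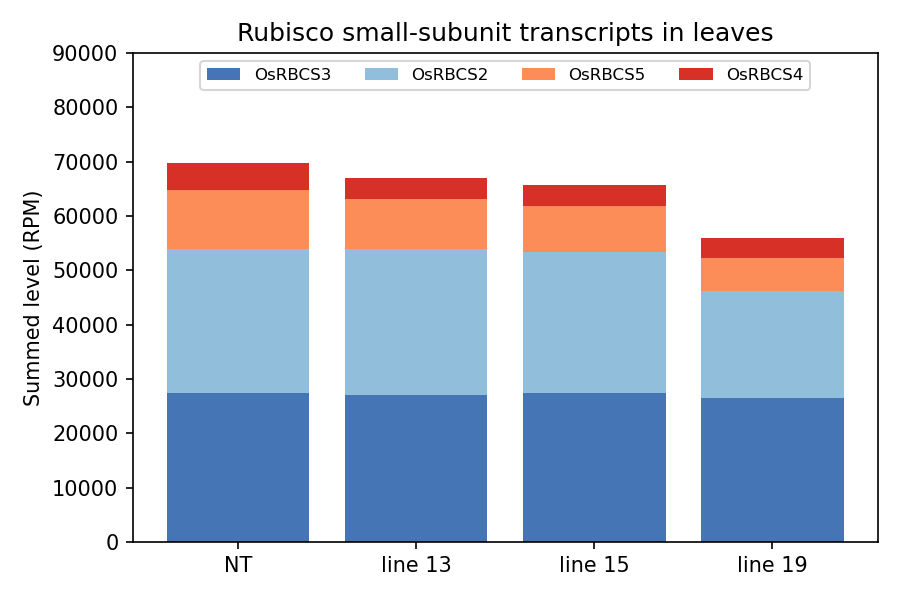
Summed level of OsRBCS2, OsRBCS3, OsRBCS4 and OsRBCS5 in RPM in each leaf sample, with each gene as a segment of the bar. The bars reach 69691 RPM in NT and 55968 RPM in line 19, and the OsRBCS3 segment is of nearly the same height in all 4.

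Set against the small subunits, OsRCA had 3.15 reads per 100 OsRBCS reads in NT leaves and 2.14, 2.10 and 2.06 in lines 13, 15 and 19, a mean of 2.10 ± 0.0416 (SD, n = 3). The 3 lines agreed closely on this ratio although their OsRCA levels differed, and NT stood apart from them. The ratio does not depend on the scaling of a library. It was not tested.

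GAPA reached 3161 RPM in NT leaves, while lines 13, 15 and 19 had 3246, 3575 and 2849 RPM. Its values in the lines lay on both sides of NT, with line 15 highest and line 19 lowest, and the log2 fold change was 0.02 (95% interval -0.29 to 0.34, limma adjusted p = 0.975). Its partner GAPB (Os03g0129300), which is no member, had 2042 RPM in NT, and the lines 1634, 1587 and 1471 RPM, all below NT. GAPB had 0.646 reads per GAPA read in NT leaves and 0.503, 0.444 and 0.516 in the lines. The log2 fold change of GAPB, -0.39, had an adjusted p of 0.826 in the fit over both tissues, where its root values of 0 to 3.45 RPM widened the spread, and of 0.381, or 0.289 after a filter on leaf levels, in leaves alone (limma).

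The CP12-like gene Os01g0303000 reached 11763 RPM in NT leaves, while lines 13, 15 and 19 had 13064, 13060 and 12389 RPM. It was the 1 member with NT below all 3 lines, as were 45.2% of the 18739 genes. Its log2 fold change of 0.13 did not pass (95% interval -0.09 to 0.34, limma adjusted p = 0.511). Another CP12 gene, OsCP12 (Os03g0306800), was far less abundant, with 260.4 RPM for NT leaves against 214, 241 and 182 RPM for the lines, and NT above all 3 (limma adjusted p = 0.527).

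**Figure D4:**
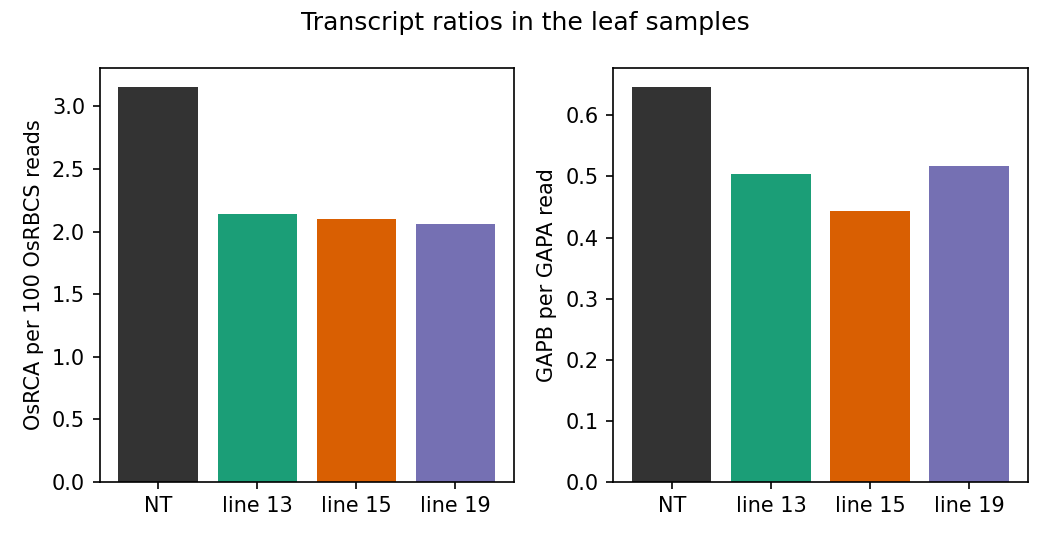
Reads of OsRCA per 100 reads of the 4 OsRBCS genes (left) and reads of GAPB per read of GAPA (right) in each leaf sample, 1 bar per sample. The OsRCA ratio is 3.15 in NT and 2.06 to 2.14 in the lines, and the GAPB ratio 0.646 in NT and 0.444 to 0.516 in the lines.

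In roots every member was listed at 0 in all 4 samples. A light-harvesting gene, CAB1R (Os09g0346500), stood at 190.2 RPM in NT roots and at 0, 3.95 and 0 RPM in roots of lines 13, 15 and 19, while 15 of its list were at 0 in every root sample. An estimated deduction made before deposit, described with the processing, would have been 119 to 231 RPM for OsRBCS2, 130 to 251 RPM for OsRBCS3 and 7.22 to 13.98 RPM for OsRCA in roots, and a level up to that size would be listed at 0. No fold change was therefore given for roots, and no test of lines against NT in roots or of the difference between tissues bears on the members. The summed OsRBCS level was lower in roots, listed at 0 in the 4 root samples and at 55968 RPM or more in the 4 leaf samples. Such full separation fixes the exact permutation test of 4 against 4 (two-sided) at p = 0.0286, the smallest this design allows. That test therefore adds nothing to these values. Swapped within the 4 pairs of root and leaf samples, the exact permutation test gave p = 0.125, again the smallest possible, so this paired form, added after seeing the data, cannot reach the threshold. Between tissues 82.7% of all genes tested passed the threshold and 24.2% were lower in roots.

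OsRBCS1 (Os02g0152400, chromosome 2), a small-subunit gene that is no member and is known for expression outside leaf blades, had the opposite distribution. NT roots held 11.4 RPM of it, against 4.47, 3.32 and 3.23 RPM for roots of lines 13, 15 and 19, while leaves had 0.631 to 1.18 RPM. All 3 lines lay below NT in roots. Its log2 fold change there was -1.42 ± 0.23 (limma adjusted p = 0.0369), and in roots 1.16% of all genes tested passed, 0.509% lower and 0.655% higher in the lines. It was named after its values were seen. The adjusted p was 0.210 without line 15, 0.228 without line 19, 0.141 with a pseudocount of 0.1 RPM, 0.0670 after TMM rescaling, 0.0620 without a filter, and 0.173 or 0.0527 in fits on roots alone.

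The large subunit, rbcL (Osp1g00420 in the chloroplast genome), reached 7240 RPM in NT leaves, while lines 13, 15 and 19 had 7140, 4602 and 5064 RPM (limma adjusted p = 0.361), and was listed at 0 in all roots. Lines 15 and 19 were below NT and line 13 was near it. A nuclear gene annotated as similar to it, Os01g0791033, had a like pattern, with 3439 RPM for NT against 3314, 2099 and 2458 RPM for the lines, and reads may be shared between them. Chloroplast transcripts mostly lack poly(A) tails, so these libraries capture them incompletely. Both genes were named after their values were seen.

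Of 9 other plastid enzymes of the cycle, among them GAPB, which shares its step with the member GAPA, 0 passed the test in leaves. The 9 were picked from their annotation after values were seen, and 2, aldolase and SBPase, had an unadjusted p under 0.05 (limma). Over all genes tested in leaves, 4615 of 21991 had an unadjusted p under 0.05. Aldolase (Os11g0171300), which joins trioses, had 2098 RPM in NT leaves, and lines 13, 15 and 19 had 1509, 1430 and 1206 RPM. Its log2 fold change was -0.61 ± 0.14 (limma adjusted p = 0.0600). Aldolase was listed at 0 in all roots, and in leaves alone the adjusted p was 0.333, or 0.208 after a filter on leaf levels. All 3 lines lay below NT, in the order seen for OsRCA. SBPase (Os04g0234600), an enzyme of ribulose bisphosphate regeneration, had 1151 RPM in NT, and the lines 994, 1001 and 942 RPM (limma adjusted p = 0.237). Phosphoribulokinase (Os02g0698000), which CP12 binds, had 1423 RPM in NT, and the lines, at 1355, 1444 and 1222 RPM, lay on both sides of it. NT was above all 3 lines for 5 of the 9 and line 19 was lowest for 7 of the 9. The shares were 20.7% and 14.2% over the 18739 genes of at least 1 RPM in leaves. Over the 102 genes of at least 1000 RPM they were 50% and 57.8%. The log2 fold changes of the 9 enzymes ran from -0.61 to -0.01 with a median of -0.09.

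**Figure D5:**
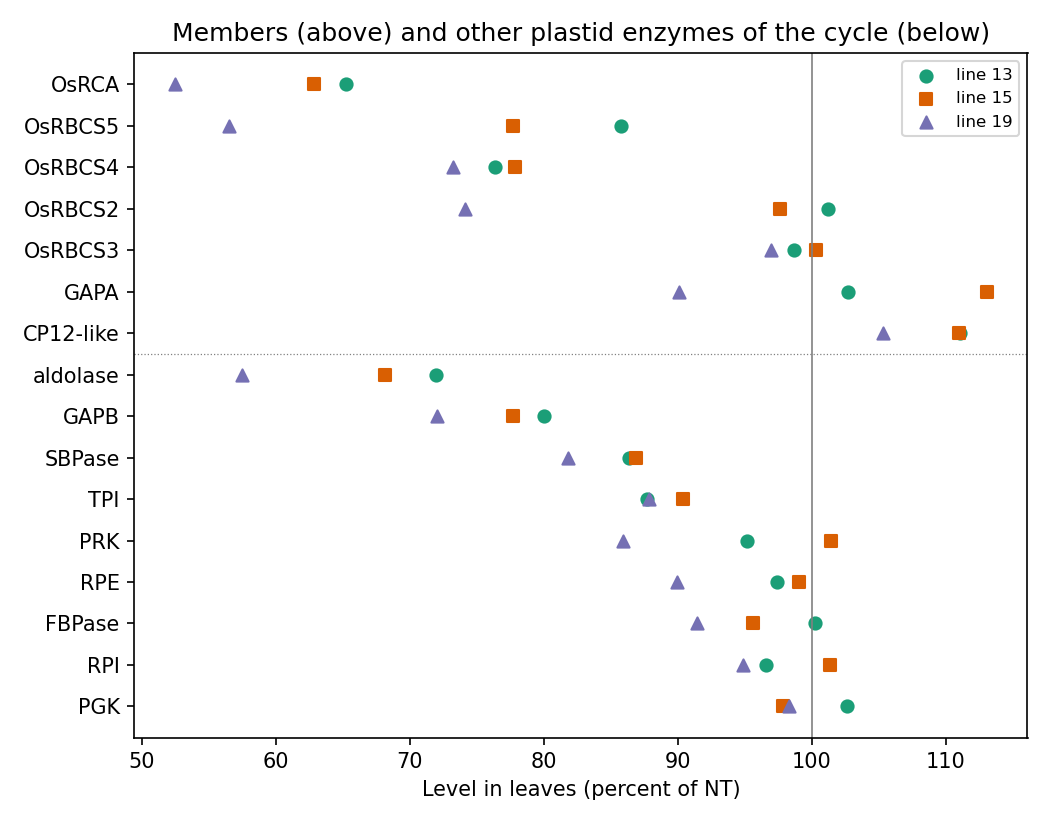
Level in leaves of lines 13, 15 and 19 as a percentage of NT, for the 7 members above the dotted line and for 9 other plastid enzymes of the Calvin cycle below it. OsRCA lies at 52.4% to 65.2% of NT, OsRBCS5 at 56.5% and aldolase at 57.5% in line 19, and the CP12-like gene lies at 105% to 111%.

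Over the whole lists, which also hold cytosolic enzymes, few genes passed. Of 34 tested Calvin-cycle and related enzymes 1 was lower and 0 higher in leaves, with a median log2 fold change of -0.04. The gene was GAPN (Os08g0440800), a non-phosphorylating cytosolic dehydrogenase, which fell from 111.7 RPM in NT to 69.3 ± 0.966 RPM in the lines (limma adjusted p = 0.0133). It did not pass without line 15 (adjusted p 0.0912), without line 19 (0.0868) or in leaves alone (0.169, or 0.0928 after a filter on leaf levels). Of 17 photorespiration genes 0 passed in leaves (limma), with a median of -0.04. An unadjusted p under 0.05 was found for 2 photorespiration genes, against 4615 of all 21991 genes tested. Glycolate oxidase GLO1, which starts that pathway in the peroxisome, had 1909.7 RPM in NT leaves and a mean of 1978 ± 94.6 RPM over the lines. The H subunit of glycine decarboxylase, OsGDCH, had 1513 and 1349 ± 110.1 RPM.

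Among Rubisco assembly factors and chaperonins, 0 of 20 tested passed in leaves (limma), 5 had an unadjusted p under 0.05 and the median was 0.21. The list also holds mitochondrial chaperonins and other members of the chaperonin family, so its median is not that of Rubisco assembly genes alone. Among all 21991 genes tested in leaves, 4615 had an unadjusted p under 0.05. A further gene of the list, Os02g0781400, similar to the chloroplast co-chaperonin Cpn21 and named after its values were seen, had 36.5 RPM in NT leaves. Lines 13, 15 and 19 had 16.3, 6.57 and 5.46 RPM, all below NT (log2 fold change -1.99 ± 0.52, limma adjusted p = 0.0869). A more abundant gene also annotated as similar to Cpn21, Os09g0438700, had 107.2 RPM in NT leaves. Its values in the same lines, 100.6, 93.0 and 110.8 RPM, lay on both sides of NT. The chaperonin subunit OsCPn60alpha1, which folds the large subunit, had 494 RPM in NT leaves and 474 ± 48.8 RPM over the lines. Os06g0332800, similar to the assembly factor BSD2, was at 364 and 349.9 ± 13.9 RPM in leaves. In roots its log2 fold change was 1.02, against 0.67 to 1.14 in alternatives that include adding back the estimated deduction. It was listed there at 5.92 RPM in NT and at 13.2, 10.9 and 15.3 RPM for lines 13, 15 and 19, and passed (limma adjusted p = 0.0409). That call held in 5 of 15 alternatives and was lost without line 13, 15 or 19 (adjusted p 0.148, 0.0632 and 0.180). Of 6 other tested Rubisco and CP12 genes 0 passed in leaves (limma, 0 at an unadjusted p under 0.05, median 0.10). They include an activase-like gene, Os04g0658300, named after its values were seen, with 41.4 RPM for NT and 49.6 ± 6.48 RPM for the lines, and a methyltransferase gene, OsSET36, with 57.3 and 62.3 ± 4.23 RPM. Of 5 tested carbonic anhydrase genes 0 passed by either measure in leaves (limma), with a median of 0.15; BETACA1, the most abundant, had 9075 RPM in NT and 8663 ± 290.3 RPM over the lines, and ALPHACA1 had 23.0 and 16.5 ± 3.83 RPM.

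Markers of other processes varied beside these values, and their part in the results was not tested. The counts at an unadjusted p under 0.05 given here stand against 4615 of all 21991 genes tested in leaves (limma). The summed light-harvesting level came to 54296 RPM for NT leaves, with 47807, 49278 and 38934 RPM for lines 13, 15 and 19, lowest in line 19 as for the summed small subunits; 0 of 13 tested genes passed in leaves (limma, 4 at an unadjusted p under 0.05, median -0.32). In leaves CAB1R had 13298 RPM in NT and 12115 ± 1639 RPM over the lines and CAB2R had 7771 and 6093 ± 972 RPM. The 6 senescence and chlorophyll breakdown genes summed to 456 RPM for NT leaves, with 555, 652 and 652 RPM for the lines; 0 passed (limma, 4 at an unadjusted p under 0.05), with NYC1 at 359 and 479 ± 41.3 RPM and NYC3 at 37.5 and 62.7 ± 6.58 RPM. Of 10 circadian clock genes, which set the daily course of many photosynthetic transcripts, 2 were higher and 1 lower in leaves. Over all genes tested in leaves, 2.66% passed as higher and 1.13% as lower in the lines. FKF1 (Os11g0547000) fell from 84.2 RPM in NT to 36.9 ± 1.91 RPM in the lines (limma adjusted p = 0.00534), OsPRR1 rose from 66.0 to 109.6 ± 1.53 RPM (adjusted p = 0.0142) and LHY from 1.34 to 4.16 ± 1.08 RPM (adjusted p = 0.0454). Without line 15 or 19 the adjusted p was 0.0924 and 0.0760 for OsPRR1 and 0.160 and 0.128 for LHY. In leaves alone it was 0.157 for OsPRR1, 0.299 for LHY and 0.144 for FKF1, and the calls held in 11 of 18, 8 of 17 and 16 of 18 alternatives. Root markers summed to 0 RPM in NT leaves and 4.35, 4.08 and 0.350 RPM in leaves of lines 13, 15 and 19, with LSI1 at 2.66 ± 2.33 RPM and OsIRT1 at 0.266 ± 0.214 RPM in the lines.

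Likeness over the 4 leaf samples was measured as the root mean square difference between deviations of log2(RPM + 1) from the leaf mean, over 1452 genes of at least 100 RPM in leaves. The gene nearest the summed OsRBCS level was Os07g0544800, a photosystem II oxygen-evolving protein (PsbQ type), with a difference of 0.0103, followed at 0.0161 to 0.0247 by Os06g0165800, similar to a caffeoyl-CoA methyltransferase, the uncharacterised Os04g0191500, the thioredoxin family gene Os01g0963400 and Os06g0264800, similar to threonine endopeptidase. The median over all genes compared was 0.204. Nearest to OsRCA were Os01g0717400, with EGF-like and alliinase domains (0.0242), Os12g0623900, similar to methionine synthase (0.0288), Os06g0633800, an amino acid transporter gene (0.0314), the ABA/WDS induced protein family gene Os01g0963600 (0.0436) and Os04g0401000, the blast resistance gene pi21 (0.05197), against a median of 0.3896. With only 4 samples this describes profiles and gives no test.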

How the data were processed

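Lasy-Seq libraries, a 3′ RNA-seq method, were made from 8 samples, per the labels' protocols. The authors quantified the reads and deposited them in 1 table as a normalized signal, reads per 1000000 (RPM) per the series design text, with a column per sample. Genes, ribosomal RNAs and spike-ins each sum to 1000000. The submitters' processing notes name Trimmomatic 0.39, Bowtie 1.2.3, RSEM 1.2.21 and the build IRGSP-1.0, without their roles or settings.

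The most frequent value above 0 was taken as 1 read, which gives the stated depth. Values were not whole multiples of it (below 20 reads, 45.5% to 61.2% came within 0.1 of an integer), so no count test was run. Adding back 0.134% to 0.142% of a gene's total over the 8 libraries raised the share of whole values, for genes totalling 200 to 600 reads, from 9.50% to 12.2% as deposited to 46.5% to 53.7% (20% by chance); no source used here describes such a deduction. Its effect on the members' leaf values was small.

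For testing, log2(RPM + 1) values of all genes averaging 1 RPM or more across 8 libraries were fitted in limma 3.58.1 and R 4.3.3 (eBayes with a trend, 4 group means, 4 residual degrees of freedom, two-sided, threshold 0.05). NT, with 1 sample per tissue, was assumed to vary like the lines. SDs are over the 3 lines unless stated. Fold changes on this scale understate changes of low genes. The fits were tested on simulated data. The members and lists were chosen with earlier results of these data known. List genes named are up to 4 past the threshold in leaves with the lowest adjusted p, filled to 2 with the most abundant, and others are marked as named after values were seen. The labels pair root with leaf by line; deviations within a line correlated at 0.268, -0.0100 and 0.149 for lines 13, 15 and 19 over 11324 genes, and the consensus correlation was 0.00483. OsRBCS genes are near-identical, and reads may be split among copies. Python 3.11.15 with numpy 2.4.6, pandas 2.3.3, scipy 1.17.1 and matplotlib 3.10.9 was used for the rest. Promoter and protein sequences were not used here.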

Additional observations from a re-analysis of the deposited data

How the results depend on the processing

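In leaves OsRCA was below NT in all 18 alternatives, with log2 fold changes of -0.86 to -0.50, and past the threshold in 6 of them. The number of members called in leaves, 1 in the fit as reported, was 2 with TMM rescaling and 0 with a pseudocount of 0.1 RPM (OsRCA adjusted p 0.0522), quantile normalization (0.0596), no trend (0.0524), the leaf samples alone by either filter, and without line 13, 15 or 19 (0 to 0). Without a filter it was 1, but that member was OsRBCS4, with OsRCA at 0.0636. With the leaf samples alone, a filter on leaf levels and a line left out, which was added after seeing the data, it was 0 as well. The sign of GAPA turned with TMM rescaling (-0.0959) and without line 15 (-0.0558, in leaves alone as well), the range over left-out lines being -0.0558 to 0.108. Quantile normalization set the log2 fold change of OsRBCS2, OsRBCS3 and the CP12-like gene to 0, their ranks being the same in every leaf sample. The mean summed OsRBCS level of the lines was 62851 RPM as deposited and 75616 RPM with TMM rescaling, which rescales all libraries together. The larger value is no rise over NT. With TMM rescaling the log2 fold changes were -0.27, -0.14, -0.52 and -0.59 for OsRBCS2, OsRBCS3, OsRBCS4 and OsRBCS5. With the line as a random replicate block OsRCA had a limma adjusted p of 0.0341 and 834 genes passed in leaves. Its consensus correlation of 0.00483 left that fit almost the same as the one reported, so it is no separate check. A fixed block gave no leaf comparison of lines with NT.

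Over all genes, 834 passed in leaves, 90 to 803 without 1 line, 16 in leaves alone, and 155 there with a filter on leaf levels (782, 485 and 0 without line 13, 15 and 19, with 2757 to 3139 at an unadjusted p under 0.05). In roots 256 passed, 684 without a filter, 121 when filtered at 5 RPM, 410.0 once the pseudocount was 5 RPM, 57 in roots alone and 64 to 253 without 1 line. The difference between tissues gave 84, against 245 without a filter, 31 when filtered at 5 RPM, 161 once the pseudocount was 5 RPM, 54 with TMM rescaling, 54 with quantile normalization, 26 with the line as a fixed replicate block, and 0 to 25 without 1 line (limma, 2573 to 3303 at an unadjusted p under 0.05). Lines higher against lower in leaves were 585 and 249, but 467 and 345 with TMM rescaling, 377 and 293 with quantile normalization and 336 and 356 without a filter. The causes were not tested. Members were at 0 in all roots, so their root and difference tests have no alternatives.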
